A study of Mus musculus with 91 samples.

Results

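The tissue difference in miRNA expression between extraembryonic ectoderm (Exe) and epiblast (Epi) was examined in E7.5 mouse embryos without DNA methyltransferases (*Dnmt*-null). The libraries were chosen by their labels: 4 of *Dnmt*-null Exe and 3 of *Dnmt*-null Epi, which is 7 of the 91 libraries of the series. The 4 Exe and 3 Epi libraries of E7.5 control embryos served as the reference. Zygotes came from B6D2F1 females mated with Oct4-EGFP males on a C57BL/6J background. They received mRNA of the cytosine base editor hA3A-eBE3-Y130F, which writes stop codons, with guides against *Dnmt1*, *Dnmt3a* and *Dnmt3b*, and the embryos developed in ICR foster mothers. Control embryos received the editor without a guide, so both genotypes share the editor and the injection. Each embryo was edited on its own, whether any cell escaped the editing was not measured here, and the number of embryos in a library is not given in the sources used here. Epi and Exe were separated with needles at E7.5, a stage at which *Dnmt*-null embryos fail in gastrulation according to the study. Small RNA was measured with CAS-seq, a library protocol for picogram amounts of RNA. The question was whether the 2 tissues keep their miRNA differences when the enzymes that write DNA methylation are lost.

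A mature miRNA is a short RNA that pairs with messenger RNAs mainly through its seed, here bases 2 to 8, and lowers their translation and stability. The miR-302/miR-367 cluster is known as an epiblast and primed pluripotency cluster, and the miR-290-295 cluster as one of naive pluripotent and trophoblast cells, although several of their members share 1 seed. The intron of *Sfmbt2*, a gene expressed from the paternal allele in extraembryonic tissue, holds a rodent-specific array of miR-297, miR-466, miR-467 and miR-669 genes that is abundant in trophoblast. DNMT1 copies CpG methylation after replication and DNMT3A and DNMT3B set it anew, and methylation of CpGs keeps imprinted and germline genes silent on 1 or both alleles.

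The miRNAs on which the results turn are shown with their RefSeq mature sequence (GRCm38.p6), 5′ to 3′, with the seed in capitals. The first set has the seed AAGUGCU and holds 1 member each of miR-302/miR-367, which was higher in Epi, and of miR-290-295, which was higher in Exe.

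miR-302b-3p: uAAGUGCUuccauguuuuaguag

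miR-295-3p: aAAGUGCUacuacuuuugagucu

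The second set has the seed AUUGCAC and differs in tissue bias among its members. miR-363-3p belongs to the X-linked miR-106a~miR-363 cluster, miR-92a-3p to both that cluster and miR-17~miR-92a, and miR-25-3p to miR-106b~miR-25.

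miR-363-3p: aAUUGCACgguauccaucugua

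miR-92a-3p: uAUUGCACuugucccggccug

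miR-25-3p: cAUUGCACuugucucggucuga

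The third set has the seed AAAGUGC, which is AAGUGCU shifted by 1 base. miR-106a-5p and miR-20b-5p are X-linked, and miR-17-5p is on chromosome 14.

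miR-106a-5p: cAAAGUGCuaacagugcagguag

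miR-20b-5p: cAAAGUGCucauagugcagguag

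miR-17-5p: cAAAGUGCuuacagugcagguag

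The last set holds miRNAs whose tissue difference was not the same in the 2 genotypes.

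miR-483-5p: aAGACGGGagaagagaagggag

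miR-351-3p: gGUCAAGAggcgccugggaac

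let-7a-5p: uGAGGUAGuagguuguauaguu

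miR-10a-5p: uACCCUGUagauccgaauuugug

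miR-142a-5p: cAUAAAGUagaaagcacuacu

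miR-470-5p: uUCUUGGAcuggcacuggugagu

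Total counts were 266379 to 841166 in the 4 *Dnmt*-null Exe libraries and 272867 to 488108 in the 3 *Dnmt*-null Epi libraries. The controls were deeper, with 499399 to 2069678 in Exe and 1623256 to 2325698 in Epi. *Dnmt*-null Exe replicate 4 stood apart. It had the highest total of its group but the fewest miRNAs detected, 524 against 632 to 709, and its counts differed from those of the other 3 with a chi-squared per degree of freedom of 166 to 242, against 16.8 to 52.2 among the other 3. Where leaving it out changed the tissue call of a miRNA described here, that is said beside the value. Values below are CPM (counts scaled to the library total) with totals scaled by TMM factors, tissue differences are log2 fold changes of Exe over Epi, positive when Exe was higher, ± SE, and p-values are from edgeR's quasi-likelihood test with Benjamini-Hochberg adjustment over all 608 miRNAs tested. A miRNA was called with an adjusted p under 0.05 and an absolute log2 fold change above 0.5. In dissected tissue, fewer cells of a type and less RNA per cell cannot be told apart. The labels do not say that replicates are separate litters or embryos, so p-values measure the spread between these libraries.

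The labels were compared with markers of each tissue. The 5 Epi markers, miR-302a-3p, miR-302b-3p, miR-302c-3p, miR-302d-3p and miR-367-3p, summed to 16485 to 28420 CPM in *Dnmt*-null Exe and 94413 to 158042 CPM in *Dnmt*-null Epi, and all 5 were higher in Epi in both genotypes. The *Sfmbt2* families were higher in Exe. miR-205-5p, the other Exe marker and a miRNA of trophoblast and other epithelia, went against the label. It stood at 170, 91.9, 155 and 745 CPM in the 4 *Dnmt*-null Exe libraries and at 936, 1065 and 1091 CPM in Epi. The groups did not overlap, Epi was higher (-1.82 ± 0.53, adjusted p = 0.0214), and without Exe replicate 4 the difference was -2.93. The call was lost without Exe replicate 1 (adjusted p = 0.0599), Exe replicate 3 (0.0719) or Epi replicate 3 (0.0566), and with only the *Dnmt*-null libraries (0.0614). In control, miR-205-5p was also lower in Exe, at 271 to 510 CPM against 758 to 1353 CPM (-1.40 ± 0.53, adjusted p = 0.0537). Both tissues were therefore checked against the other lists as well, and their values are given with the results they touch.

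In *Dnmt*-null embryos, 136 of the 608 miRNAs tested were called between Exe and Epi (22.4%). Of these, 89 were higher in Exe (14.6%) and 47 higher in Epi (7.73%). In control embryos 192 were called (31.6%), with 129 higher in Exe (21.2%) and 63 higher in Epi (10.4%). The libraries of the *Dnmt*-null tissues did not overlap for 198 miRNAs (32.6%). The split between the directions depended on the scaling. The median over all tested miRNAs was 0.23 in *Dnmt*-null and -0.02 in control, and with TMM factors computed without the *Dlk1-Dio3* miRNAs the *Dnmt*-null median was -0.01 and the split 78 to 68. With all 8 E7.5 groups in 1 fit it was 70 to 70, and with every library thinned to 266379 counts it was 62 to 58. Without Exe replicate 4, 165 were called, 101 higher in Exe and 64 in Epi.

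Most control differences had the same direction without the methyltransferases. Of the 192 miRNAs called in control, 183 had a difference of the same sign in *Dnmt*-null, 7 of the opposite sign and 2 had a fitted difference of 0. The call itself was met in the same direction by 104, which is 54.2% of the control calls and 76.5% of the 136 *Dnmt*-null calls, and by none in the opposite direction (2 at an unadjusted p under 0.05, miR-151-3p and miR-5103, and 0 by DESeq2). Without Exe replicate 4 the number was 131, and at equal depth it was 95 of 167 control calls. The 2 comparisons have no library in common, but share 1 estimate of spread.

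The medians of the control lists were closer to 0 in *Dnmt*-null. The median log2 fold change of the 129 miRNAs higher in control Exe was 3.85 in control and 2.43 in *Dnmt*-null. Of these, 73 were called in *Dnmt*-null and 128 kept their sign. For the 63 higher in control Epi the medians were -2.40 and -1.62, and 31 were called in *Dnmt*-null. These 2 lists were selected on the control values. In the opposite selection, the 89 miRNAs higher in *Dnmt*-null Exe had medians of 2.65 in *Dnmt*-null and 2.21 in control. Across the 608 miRNAs, which are not independent replicates, Pearson's r of the 2 differences was 0.632 and Spearman's rho 0.703. Over the 284 miRNAs with a mean of at least 100 CPM in *Dnmt*-null these were 0.799 and 0.813.

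**Figure D1:**
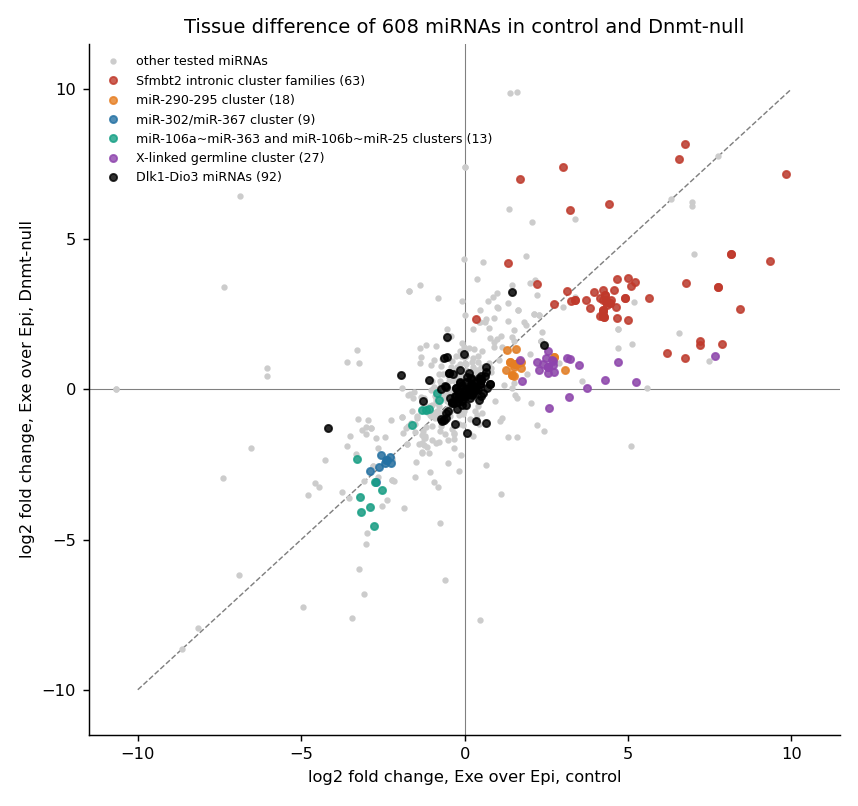
Log2 fold change of Exe over Epi in control (x axis) and in *Dnmt*-null (y axis) for the 608 miRNAs tested, 1 point per miRNA, with 6 groups in colour and the line of equal values dashed. The 9 miR-302/miR-367 members lie near the dashed line at about the same negative value, the 63 *Sfmbt2* family members are positive on both axes, and the 27 X-linked germline members lie between -0.63 and 1.26 on the y axis and to the right of 0 on the x axis.

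The difference between the 2 tissue differences was tested for each miRNA, and 31 of 608 were called (5.1%). Of these, 12 were more Exe-biased and 19 less Exe-biased in *Dnmt*-null, and 6 had opposite signs in the 2 genotypes. Among the 104 miRNAs called the same way in both genotypes, 17 also passed this test. The count depended on single libraries: it was 13 to 55 when 1 library was left out, with 55 without *Dnmt*-null Exe replicate 4 and 13 without *Dnmt*-null Epi replicate 1. The split into more and less Exe-biased varied too. It was 10 to 38 with library totals only, 8 to 43 with all 8 E7.5 groups, 4 to 33 without control Epi replicate 2 and 10 to 9 without control Exe replicate 2.

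The miR-302/miR-367 cluster was Epi-biased by nearly the same ratio in both genotypes. All 9 tested members of the cluster (chr3:127545228-127545807 in GRCm38, inside intron 8 of *Larp7* but on the opposite strand) were higher in Epi in *Dnmt*-null and in control. Their median was -2.46 in *Dnmt*-null and -2.44 in control, none was called different between genotypes (0 also at an unadjusted p and by DESeq2), and the libraries of the 2 *Dnmt*-null tissues did not overlap for any of the 9. miR-302b-3p, the most abundant member and the most abundant miRNA of *Dnmt*-null Epi, stood at 17371, 15799, 27071 and 21776 CPM in *Dnmt*-null Exe and at 90307, 98927 and 150147 CPM in Epi. Every Epi library was above every Exe library. The difference was 5.52-fold (-2.46 ± 0.20, adjusted p = 3.04e-07). In control it was -2.44 ± 0.20, from levels of 31710 to 44443 CPM in Exe and 209471 to 214458 CPM in Epi. The cluster took 2.26, 1.93, 3.05 and 2.29% of the counts of the *Dnmt*-null Exe libraries and 12, 13.4 and 18.5% of the Epi libraries.

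The 5′ arms of the same hairpins had the same order. miR-302a-5p stood at 1115 to 1790 CPM in *Dnmt*-null Exe and 7388 to 10553 CPM in Epi (-2.59 ± 0.21, against -2.62 ± 0.21 in control). miR-302b-5p had the largest difference of the cluster, from 163 to 403 CPM in Exe to 1879 to 2726 CPM in Epi (-3.09 ± 0.29). miR-302d-5p stood at 311 to 704 CPM in Exe and 2160 to 3937 CPM in Epi (-2.46 ± 0.29, against -2.25 ± 0.29 in control). Both arms of these hairpins were thus higher in Epi.

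The paralogues of miR-17~miR-92a separated by locus. Of the 13 tested members of the miR-106a~miR-363 and miR-106b~miR-25 clusters, 7 were higher in Epi in *Dnmt*-null and 10 in control, all 13 were negative in both genotypes, and the medians were -2.32 and -2.52. miR-363-3p, from the X-linked cluster (chrX:52741693-52742567), stood at 1095, 1240, 2128 and 1495 CPM in *Dnmt*-null Exe and at 10492, 12925 and 14097 CPM in Epi, with no overlap (8.38-fold, -3.07 ± 0.22, adjusted p = 1.35e-07). In control it was -2.74 ± 0.21. miR-106a-5p stood at 20.9, 39.4, 74.2 and 6.73 CPM in Exe and 394, 650 and 763 CPM in Epi (-4.07 ± 0.60), and miR-20b-5p at 29.6 to 101 CPM in Exe and 581 to 907 CPM in Epi (-3.59 ± 0.42). miR-92a-2-5p, the passenger strand of the X-linked miR-92a copy, was at 62.6, 59.1, 60.2 and 234 CPM in Exe and 2260, 1262 and 1279 CPM in Epi (-3.92 ± 0.47). Among the tested members with a sequence, the X-linked ones had the largest differences of the seeds AUUGCAC and AAAGUGC.

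The members with the same seeds elsewhere differed less. miR-25-3p was 1.57-fold higher in *Dnmt*-null Epi, at 5282, 5374 and 5997 CPM against 3144, 2798, 3285 and 4938 CPM in Exe (-0.65 ± 0.18, adjusted p = 0.0143). miR-92a-3p, which the X-linked and chromosome 14 loci both encode, was at 41679, 41256, 56763 and 108259 CPM in *Dnmt*-null Exe and 92971, 83202 and 95747 CPM in Epi, where Exe replicate 4 lay above all Epi libraries (-0.55 ± 0.25, adjusted p = 0.134). Without that library miR-92a-3p was called at -1.0 (adjusted p = 1.2e-05). With all libraries kept it was also called with library totals only (-0.74), with TMM factors without the *Dlk1-Dio3* miRNAs (-0.81) and at equal depth (-0.85). Leaving out any 1 control Epi library gave a call as well. The missing call thus depended on the scaling and on several libraries. In control miR-92a-3p was called, at 2.10-fold higher in Epi. miR-17-5p had a difference of -0.55 ± 0.23 in *Dnmt*-null (adjusted p = 0.0963) and -1.03 ± 0.22 in control. Of the 11 tested members of miR-17~miR-92a, 2 were called higher in *Dnmt*-null Epi and 5 in control Epi, against 7.73 and 10.4% of all miRNAs. Their medians were -0.85 and -1.05, and without Exe replicate 4 the count was 4 of 10 in *Dnmt*-null.

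Other miRNAs higher in Epi came from several loci. miR-27b-3p, an abundant miRNA encoded with miR-23b and miR-24-1 (chr13:63300484-63301275), stood at 1763, 1798, 2713 and 1690 CPM in *Dnmt*-null Exe and 8304, 9704 and 11121 CPM in Epi. The groups were far apart (4.87-fold, -2.29 ± 0.18), as in control (-2.21 ± 0.18). Its neighbours miR-23b-3p, at 17.4 to 43.1 against 223 to 356 CPM (-3.06 ± 0.36), and miR-23b-5p, at 2.69 to 14 against 86.9 to 171 CPM (-3.94 ± 0.57), were higher in Epi as well, whereas miR-27a-3p of the paralogous cluster had 253 to 536 CPM in Exe and 223 to 646 CPM in Epi. Of the 9 tested miR-23/miR-27/miR-24 members 4 were higher in Epi. The miR-181 family, known from neural and lymphoid tissue, had 4 of 7 higher in *Dnmt*-null Epi and 3 of 7 in control Epi. miR-30c-5p alone among the 11 miR-30 members was called, at 3734 to 4913 CPM in Exe and 11730 to 14052 CPM in Epi (2.92-fold, -1.55 ± 0.14). Among all miRNAs tested, 7.73% were called higher in *Dnmt*-null Epi and 10.4% in control Epi.

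miR-325-3p, an X-linked miRNA (chrX:105379082-105379179), had the largest difference among miRNAs with a mean of at least 100 CPM in Epi. It stood at 0, 2.19, 7.0 and 8.08 CPM in *Dnmt*-null Exe and 148, 86.9 and 192 CPM in Epi (-4.80 ± 0.64, against -2.99 ± 0.55 in control). miR-135a-1-3p, chosen after its values were seen, had no count in any of the 8 Exe libraries of either genotype. It stood at 36.1, 72.4 and 54.7 CPM in *Dnmt*-null Epi, at least 8.63-fold higher than in Exe against a floor of 3 counts per library. The miR-183/miR-96/miR-182 cluster, which marks sensory and epithelial cells, had 2 of 6 tested members higher in *Dnmt*-null Epi and 3 in control Epi. The miR-34 and miR-449 family had 1 of 3 in each. These counts stand beside 7.73 and 10.4% of all miRNAs. miR-182-5p was at 7287 to 10871 CPM in *Dnmt*-null Exe and 13888 to 17239 CPM in Epi (-0.78 ± 0.15, against -0.86 ± 0.15 in control), and miR-34b-3p was at 6.96 to 67.3 and 137 to 260 CPM (-2.34 ± 0.56).

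**Figure D2:**
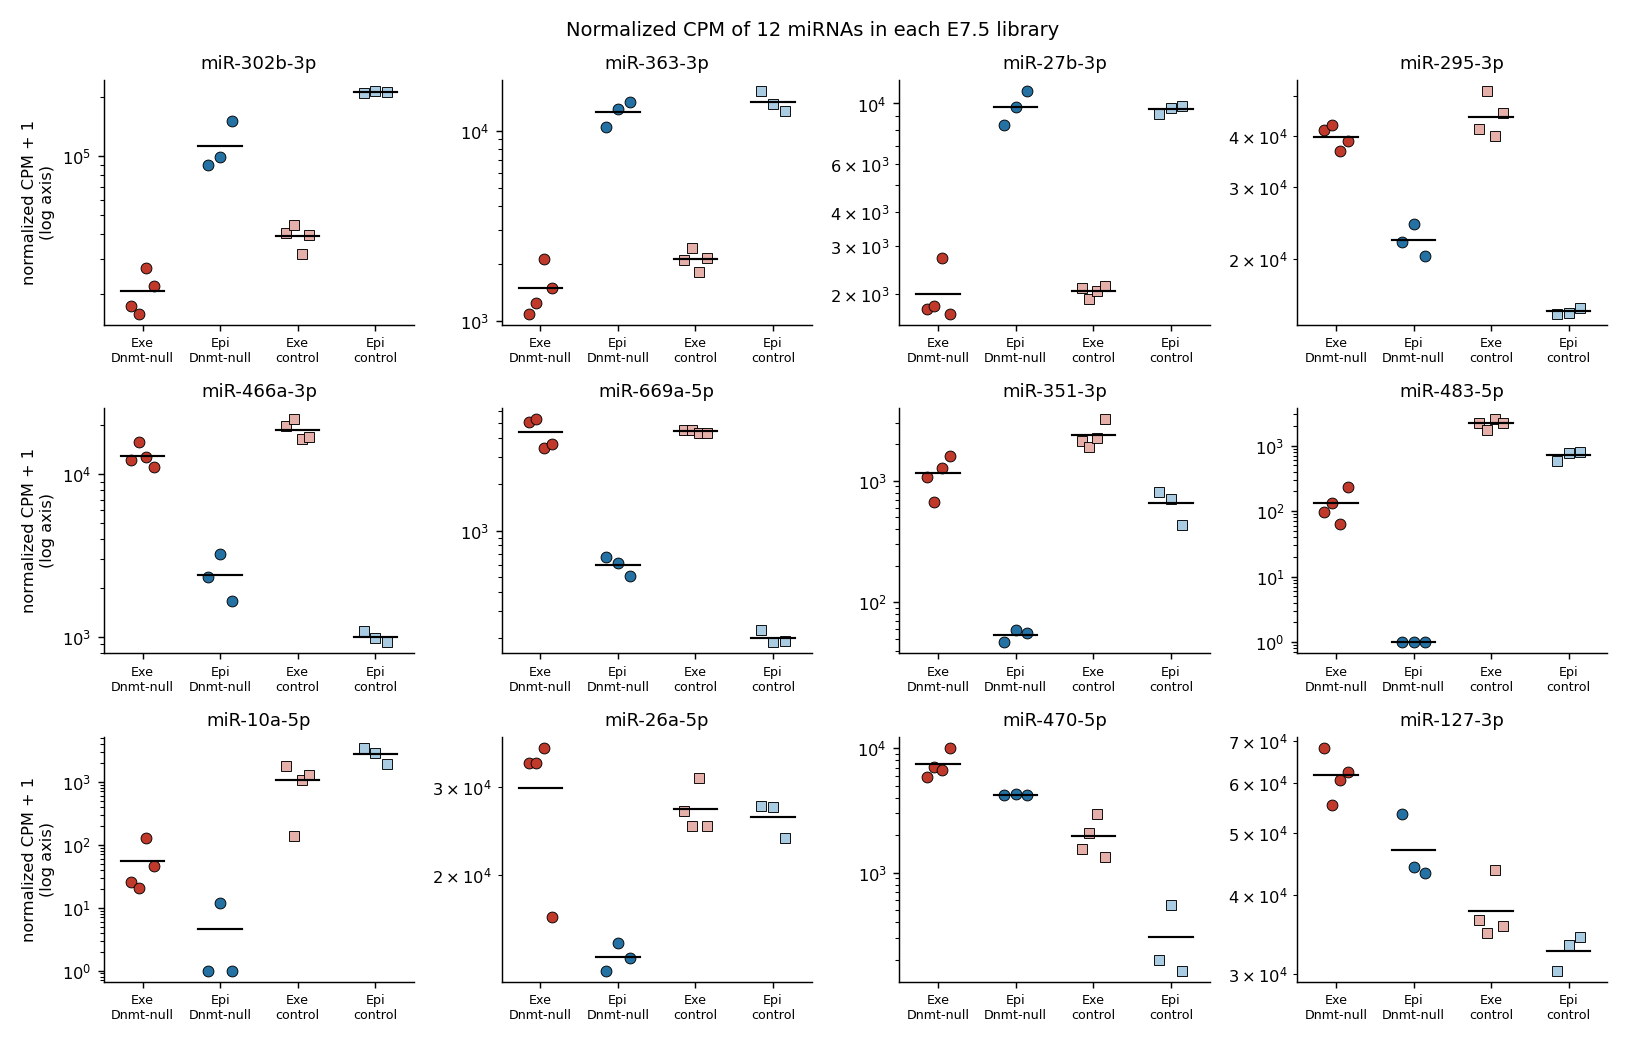
Normalized CPM plus 1 on a log axis for 12 miRNAs in each E7.5 library. Each point is a library, circles are *Dnmt*-null and squares control, Exe in red and Epi in blue, and bars are group means. miR-302b-3p, miR-363-3p and miR-27b-3p have similar gaps in both genotypes, miR-295-3p and miR-466a-3p smaller gaps in *Dnmt*-null, and miR-483-5p is at 0 CPM in the 3 *Dnmt*-null Epi libraries.

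The miR-290-295 cluster was Exe-biased in both genotypes, with a smaller median in *Dnmt*-null. Of the 18 tested members of the miR-290-295 cluster (chr7:3218626-3220841), 10 were called higher in *Dnmt*-null Exe and 16 in control Exe. All 18 were positive in both, with medians of 0.86 and 1.54 and a *Dnmt*-null range of 0.45 to 1.34. miR-295-3p, the most abundant member in *Dnmt*-null Exe, stood at 41241, 42433, 36738 and 38706 CPM in *Dnmt*-null Exe and at 22077, 24380 and 20340 CPM in Epi. The groups did not overlap (1.79-fold, 0.84 ± 0.12, adjusted p = 7.6e-05). In control it stood at 39904 to 51400 CPM in Exe and 14745 to 15259 CPM in Epi (2.98-fold, 1.57 ± 0.12). The tissue difference was smaller in *Dnmt*-null by 0.74 ± 0.17 on the log2 scale (adjusted p = 0.0209), a call met in 19 of 24 alternative settings.

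The other called members, miR-290a-5p, miR-290b-3p and miR-295-5p, had a smaller difference in *Dnmt*-null than in control. These 4 calls between genotypes rested on single libraries: there were 0 without *Dnmt*-null Exe replicate 3, *Dnmt*-null Epi replicate 1 or 2, or control Exe replicate 2, 1 without *Dnmt*-null Exe replicate 2 or control Exe replicate 3, and 7 without *Dnmt*-null Exe replicate 4. The pair miR-290a-5p and miR-290b-3p comes from opposite strands of 1 site, shares nearly all its reads in the table and cannot be told apart. miR-293-3p stood at 22190 to 31296 CPM in *Dnmt*-null Exe and 14918 to 18606 CPM in Epi (0.64 ± 0.14, against 1.28 ± 0.14 in control), and miR-291a-5p at 19144, 20208, 24547 and 43971 CPM in Exe and 12640 to 16349 CPM in Epi (0.90 ± 0.24). The count of called members depended on the scaling and on the libraries used. It was 5 under TMM factors without the *Dlk1-Dio3* miRNAs, 2 at equal depth, 3 with only the *Dnmt*-null libraries and 5 without any 1 control Epi library. The median stayed positive in every alternative (0.59 to 0.94). The cluster took 13.8, 13.8, 12.9 and 15.5% of counts in *Dnmt*-null Exe and 9.17, 10.2 and 8.15% in Epi, against means of 15.2 and 4.92% in control.

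The seed AAGUGCU came from both clusters in both tissues, in different proportions. Its 5 miRNAs with a sequence took 6.55, 6.27, 6.32 and 5.47% of *Dnmt*-null Exe counts and 12.8, 14.3 and 18.3% of Epi counts. Of this, miR-302b-3p and miR-302d-3p made 1.69 to 2.67% in Exe and 10.2 to 16.1% in Epi. The 3 members of the other cluster, miR-291a-3p, miR-294-3p and miR-295-3p, made 3.49 to 4.61% in Exe and 2.20 to 2.82% in Epi. In control Exe the shares were nearer each other, at 3.23 to 4.47% for the miR-302 pair and 4.04 to 5.12% for the other 3, and in control Epi they were 19.5 to 20.6% and 1.39 to 1.43%. For the seed AUUGCAC, 6 miRNAs made 5.05, 4.87, 6.22 and 10.6% of Exe counts and 13.1, 12.2 and 13.0% of Epi counts.

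**Figure D3:**
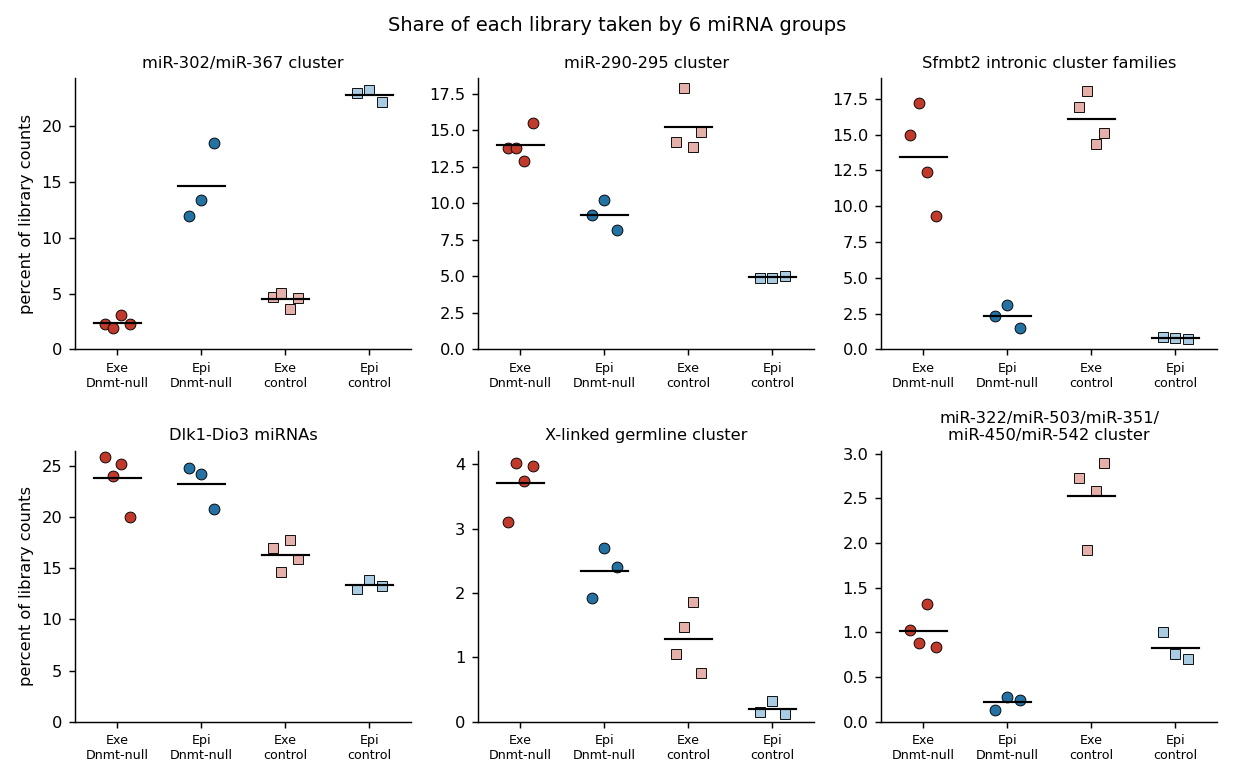
Percent of each library's counts taken by 6 miRNA groups, 1 point per library, circles for *Dnmt*-null, squares for control, and bars for group means. The miR-302/miR-367 share is highest in Epi and the *Sfmbt2* family share in Exe in both genotypes, while the *Dlk1-Dio3* shares of the *Dnmt*-null tissues overlap at 20.1 to 25.8% and 20.8 to 24.8%.

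The *Sfmbt2* intronic families made the largest group of Exe-biased miRNAs. In GRCm38, 71 of the 81 genes named miR-297, miR-466, miR-467 or miR-669 lie in intron 10 of *Sfmbt2* (chr2:10466663-10518279). Of 78 mature members in the table, 63 were tested, and 39 of these were called higher in *Dnmt*-null Exe and 56 in control Exe. All 63 were positive in both genotypes, with medians of 2.97 and 4.33, and for 45 the *Dnmt*-null libraries did not overlap. These members are not independent. Many have identical counts, since their genes are near copies and reads were entered for each name, and when identical members were counted once, 28 of 50 were called. Without Exe replicate 4 it was 39 of 59.

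The families remained Exe-biased in both genotypes by a smaller ratio in *Dnmt*-null. miR-466a-3p, whose counts equal those of miR-466e-3p, stood at 12314, 15748, 12783 and 11038 CPM in *Dnmt*-null Exe and at 2345, 3212 and 1656 CPM in Epi. The groups did not overlap (5.39-fold, 2.43 ± 0.22, adjusted p = 4.85e-07). In control it stood at 16434 to 21803 CPM in Exe and at 927 to 1081 CPM in Epi (18.8-fold, 4.23 ± 0.24). The lowest *Dnmt*-null Epi library was therefore above the highest control Epi library, and the highest *Dnmt*-null Exe library below the lowest control Exe library. The tissue difference was smaller in *Dnmt*-null by 1.80 ± 0.28 on the log2 scale (adjusted p = 0.00143), and this call was met in 24 of 24 alternative settings.

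miR-669a-5p, identical to miR-669p-5p in its counts, stood at 5032, 5267, 3407 and 3618 CPM in *Dnmt*-null Exe and 670, 614 and 503 CPM in Epi (7.27-fold, 2.86 ± 0.21). In control Exe it had a similar level, 4277 to 4515 CPM, and in control Epi 188 to 224 CPM (21.9-fold, 4.45 ± 0.23). For this miRNA the Exe levels of the genotypes overlapped and the Epi levels did not. Its difference between genotypes was -1.59 ± 0.27 (adjusted p = 0.00203). In all, 10 of the 63 members differed between genotypes, each with a smaller difference in *Dnmt*-null. miR-669h-5p was at 146, 114, 175 and 171 CPM in *Dnmt*-null Exe and 0, 0 and 3.42 CPM in Epi, the last being 1 read (adjusted p = 1.9e-05). miR-669l-5p stood at 727, 661, 468 and 110 CPM and 62.4, 63.4 and 6.84 CPM (3.44 ± 0.71), and miR-466g at 459 to 1306 CPM and 46.0 to 170 CPM (3.31 ± 0.61).

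The cluster families took 14.9, 17.2, 12.4 and 9.32% of counts in *Dnmt*-null Exe, and 2.31, 3.12 and 1.52% in Epi. With identical members counted once these were 9.71, 11.0, 7.71 and 5.78%, and 1.33, 1.75 and 0.85%. In control the means were 16.1% in Exe and 0.80% in Epi, and 9.67 and 0.44% with identical members counted once.

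**Figure D4:**
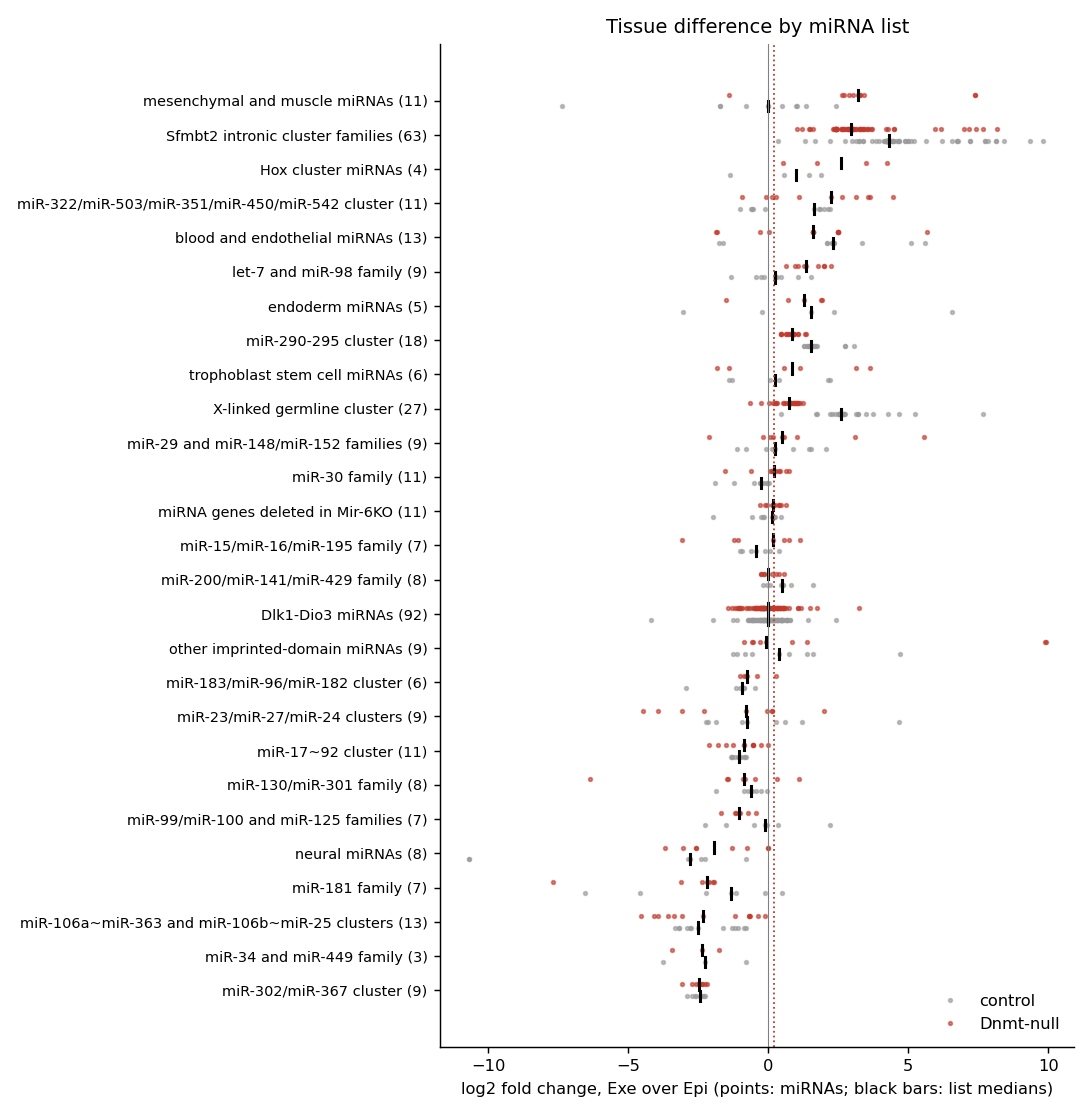
Log2 fold change of Exe over Epi for each tested miRNA of 27 lists, with control in grey and *Dnmt*-null in red, a black bar at each list's median and the number tested in brackets. The red dotted line is the median of all 608 miRNAs in *Dnmt*-null, 0.23, and the lists run from the miR-302/miR-367 cluster and similar Epi-biased groups at the bottom to mesenchymal miRNAs and the *Sfmbt2* families at the top.

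A second X-linked cluster was Exe-biased in both genotypes. Of the 11 tested miRNAs of miR-322/miR-503/miR-351/miR-450/miR-542 (chrX:53047997-53054349), which is known for arresting the cell cycle, 6 were called higher in Exe in each genotype, and the same 6 in both. The medians were 2.25 in *Dnmt*-null and 1.64 in control. miR-351-3p stood at 1075, 671, 1281 and 1600 CPM in *Dnmt*-null Exe and at 46.0, 57.9 and 54.7 CPM in Epi. Every Exe library was above every Epi library (21.7-fold, 4.44 ± 0.37, adjusted p = 3.09e-07). In control the levels were 1917 to 3216 CPM in Exe and 436 to 812 CPM in Epi (3.64-fold, 1.86 ± 0.31). The *Dnmt*-null difference was larger by 2.58 ± 0.45 (adjusted p = 0.00241), a call met in 24 of 24 alternative settings.

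Other members of this cluster had the same order. miR-351-5p stood at 3535 to 6730 CPM in *Dnmt*-null Exe and 424 to 1135 CPM in Epi (2.64 ± 0.33, against 1.64 ± 0.31 in control). miR-322-3p stood at 1774, 2336, 3088 and 772 CPM and 65.7, 214 and 192 CPM (3.65 ± 0.50, against 2.15 ± 0.46). miR-503-3p stood at 520 to 964 CPM and 29.6 to 86.9 CPM (3.56 ± 0.37, against 2.0 ± 0.33). Of the 11 members, miR-351-3p alone passed the test between genotypes. The cluster's share of counts was 0.83 to 1.31% in *Dnmt*-null Exe and 0.13 to 0.28% in Epi, and 2.53 and 0.83% on average in the controls.

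miR-483, in intron 2 of the imprinted growth factor gene *Igf2* (chr7:142654924-142654996), was read in Exe and not in Epi among the *Dnmt*-null libraries. miR-483-5p stood at 97.4, 133, 61.6 and 230 CPM in *Dnmt*-null Exe and had no read in the 3 *Dnmt*-null Epi libraries. Against a floor of 3 counts per library it was at least 15.3-fold higher in Exe (adjusted p = 2.84e-06). In control it was present in both tissues, at 2215, 1739, 2511 and 2227 CPM in Exe and 586, 758 and 800 CPM in Epi (3.04-fold, 1.60 ± 0.37). miR-483-3p, the other arm, had 139, 89.7, 33.6 and 253 CPM in *Dnmt*-null Exe, no read in Epi, and 1558 to 2903 and 899 to 935 CPM in the control tissues, so it was at least 15.1-fold higher in *Dnmt*-null Exe. The tissue differences of both arms differed between genotypes (adjusted p = 0.00143 and 0.00623) in all 24 alternative settings, while their fitted size depends on the prior count and is no bound. Of the 9 tested miRNAs of imprinted domains other than *Dlk1-Dio3* and *Sfmbt2*, these 2 alone were called in *Dnmt*-null. miR-298-5p of the *Gnas* domain stood at 15153 to 18265 CPM in Exe and 16299 to 18095 CPM in Epi (-0.07 ± 0.13), and in control it was higher in Epi (-0.57 ± 0.13).

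The *Dlk1-Dio3* miRNAs, which are transcribed from the maternal allele at the imprinted locus between *Dlk1* and *Dio3* on chromosome 12, were near equal in the 2 *Dnmt*-null tissues. They are relevant here because they were a large part of both libraries, 20.1 to 25.8% of counts in Exe and 20.8 to 24.8% in Epi, against 16.3 and 13.4% on average in the control tissues. Of 92 tested, 1 was called higher in Exe and 1 higher in Epi, 45 were positive and 47 negative, and the median was -0.00. The 2 called, named for their call, were miR-434-5p (0.57 ± 0.18) and miR-758-3p (-0.94 ± 0.26). miR-127-3p, the most abundant, stood at 68231, 55478, 60754 and 62490 CPM in Exe and 53632, 44266 and 43296 CPM in Epi, a 1.31-fold difference under the fold threshold (0.39 ± 0.12, adjusted p = 0.0303). miR-409-3p overlapped, at 27560 to 39800 and 27044 to 30808 CPM (0.16 ± 0.13), as did miR-370-3p, at 10289 to 21180 and 13905 to 15436 CPM (0.05 ± 0.20). With TMM factors computed without these miRNAs the median was -0.26, with none called higher in Exe and 9 in Epi. Without Exe replicate 4, 4 were called higher in Exe and 4 in Epi, and DESeq2 called 1 and 8. Leaving out any 1 control Epi library gave none higher in Exe and 6 or 7 higher in Epi.

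The X-linked germline cluster (chrX:66776757-66839125), whose miRNAs are best known from testis, had no tissue call in *Dnmt*-null. Of 27 tested miRNAs, 17 were called higher in control Exe and none was called in *Dnmt*-null by edgeR or DESeq2, with 5 at an unadjusted p under 0.05. There, 25 were positive with a median of 0.75, against 2.59 in control. miR-470-5p, the most abundant, stood at 5874, 7052, 6739 and 10093 CPM in *Dnmt*-null Exe and at 4208, 4326 and 4180 CPM in Epi (1.76-fold, 0.81 ± 0.37, adjusted p = 0.131). In control it stood at 1341 to 2945 CPM in Exe and 163 to 549 CPM in Epi (6.54-fold, 2.71 ± 0.40). The *Dnmt*-null Epi libraries were thus above every control Exe library. The tissue difference was smaller in *Dnmt*-null by 1.90 ± 0.52 (adjusted p = 0.046), a call met in 12 of 24 alternative settings.

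miR-741-3p and miR-465b-3p had the same order of levels. miR-741-3p stood at 2942 to 6490 CPM in *Dnmt*-null Exe, 1866 to 3113 CPM in Epi, and 768 to 2343 and 155 to 423 CPM in the control tissues (0.98 ± 0.40 and 2.69 ± 0.43). miR-465b-3p stood at 2309 to 6783, 1981 to 2823, 946 to 2485 and 185 to 442 CPM (0.73 ± 0.40 and 2.55 ± 0.43). The difference between genotypes was called for 4 members, miR-470-5p and, named for their call, miR-465c-5p, miR-743a-3p and miR-881-5p. That number rested on single libraries: it was 12 without control Epi replicate 2, 9 without control Exe replicate 4, 7 without *Dnmt*-null Exe replicate 4 and 1 to 3 without any other library, and it was 11 by DESeq2 and 12 with the replicate block. Without Exe replicate 4, 2 members were called higher in *Dnmt*-null Exe, miR-741-3p (1.14, adjusted p = 0.0402) among them, and with no filter on low counts 8 were. The cluster's share was 3.11 to 4.01% in *Dnmt*-null Exe and 1.92 to 2.69% in Epi, and 1.28 and 0.20% on average in the controls.

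Several miRNAs of differentiated tissues were higher in *Dnmt*-null Exe than in *Dnmt*-null Epi, at low levels. Of the 9 tested members of let-7, the family known to rise as embryonic cells mature, 2 were called in *Dnmt*-null and none in control, with medians of 1.34 and 0.26. Among all miRNAs tested 14.6% were called higher in *Dnmt*-null Exe, so the count alone does not set the family apart. let-7a-5p stood at 351, 494, 726 and 492 CPM in *Dnmt*-null Exe and 112, 159 and 116 CPM in Epi (3.98-fold, 1.99 ± 0.32, adjusted p = 2.2e-04), and at 200 to 249 and 159 to 199 CPM in the control tissues (0.26 ± 0.30). The groups did not overlap in *Dnmt*-null, and the difference between genotypes was 1.74 ± 0.43 (adjusted p = 0.0284), a call met in 14 of 24 alternative settings. let-7f-5p stood at 253 to 647 and 26.3 to 147 CPM (2.25 ± 0.57). miR-26a-5p, chosen after its values were seen because it is abundant and differed between genotypes, stood at 33475, 33526, 35958 and 16546 CPM in *Dnmt*-null Exe and 12909, 14676 and 13683 CPM in Epi (2.17-fold, 1.12 ± 0.21), and had a control difference of 0.05 ± 0.21. The difference between genotypes, 1.07 ± 0.29 (adjusted p = 0.0453), was called in 7 of 24 alternative settings.

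Of the 11 tested mesenchymal and muscle miRNAs, 4 were called higher in *Dnmt*-null Exe and none in control Exe, where 1 was higher in Epi. Among all miRNAs 14.6% were called higher in *Dnmt*-null Exe. The 4 calls became 2 without *Dnmt*-null Epi replicate 1 or 2 and at equal depth, and 3 of 8 with identical miRNAs counted once. miR-199a-5p stood at 518, 372, 512 and 312 CPM in *Dnmt*-null Exe and 75.6, 86.9 and 41.0 CPM in Epi (2.65 ± 0.49), and at 23.7 to 52.5 and 18.1 to 50.1 CPM in control. miR-143-3p stood at 76.5, 219, 283 and 248 CPM and 6.57, 39.8 and 17.1 CPM (3.20 ± 0.64). These overlap the stroma markers that a dissection could carry along. The 4 markers, miR-143-3p, miR-145a-5p, miR-199a-3p and miR-214-3p, summed to 195 to 405 CPM in *Dnmt*-null Exe and 6.57 to 54.3 CPM in Epi, and to 269 to 859 and 259 to 421 CPM in control Exe and Epi. miR-214-3p had no read in any of the 7 *Dnmt*-null libraries. The part of stromal cells in these differences was not tested.

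Blood and endothelial miRNAs had positive medians, 1.61 in *Dnmt*-null and 2.32 in control, with wide spread. Of 13 tested, 4 were called higher in *Dnmt*-null Exe and 10 in control Exe, against 14.6 and 21.2% of all miRNAs. The 4 *Dnmt*-null calls fell to 0 without *Dnmt*-null Exe replicate 3, without *Dnmt*-null Epi replicate 1 or 2 and with the replicate block. They were 2 without *Dnmt*-null or control Epi replicate 3, 8 without control Exe replicate 2, and 2 of 9 with identical miRNAs counted once. miR-126a-3p, an endothelial miRNA whose reads are also entered for miR-126b-5p on the opposite strand, stood at 118, 195, 1389 and 504 CPM in *Dnmt*-null Exe and 112, 90.5 and 95.8 CPM in Epi (2.48 ± 0.70, adjusted p = 0.0162). Without Exe replicate 3 it was 1.52 and not called (adjusted p = 0.0561). The 4 blood markers, miR-451a, miR-144-3p, miR-142a-3p and miR-223-3p, summed to 18.9 to 31.3 CPM in *Dnmt*-null Exe and 14.5 to 23 CPM in Epi, and to 65.3 to 206 CPM in control Exe and 0 to 11.3 CPM in control Epi, with miR-223-3p at 0 in all 14 libraries. These markers were thus higher in control Exe, where the 10 calls were made, and the part of blood cells in the differences was not tested. miR-142a-5p, known from blood cells, had tissue differences of opposite sign in the 2 genotypes. It stood at 83.5, 24.1, 679 and 99.7 CPM in *Dnmt*-null Exe and 700, 768 and 992 CPM in Epi (-1.87 ± 0.96, adjusted p = 0.171). Exe replicate 3 was far above the other Exe libraries, and without it the difference was -3.53 and called (adjusted p = 0.0128). In control it stood at 116 to 1935 CPM in control Exe and 4.80 to 61.3 CPM in control Epi (5.09 ± 1.19). The 2 differences were 6.96 ± 1.5 apart on the log2 scale (adjusted p = 0.0158, called in 24 of 24 alternative settings). The other arm, miR-142a-3p, had no read in the 4 *Dnmt*-null Exe libraries and 0, 0 and 2 reads in the Epi libraries.

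miRNAs of the *Hox* clusters, which mark position along the body axis, were at low levels in *Dnmt*-null tissues. miR-10a-5p (chr11:96317165-96317274) stood at 24.3, 19.7, 126 and 44.4 CPM in *Dnmt*-null Exe and 0, 10.9 and 0 CPM in Epi, against 1750, 137, 1069 and 1294 CPM in control Exe, where replicate 2 was lowest, and 3450, 2843 and 1901 CPM in control Epi. The *Dnmt*-null groups did not overlap and Exe was higher (3.49 ± 1.09, adjusted p = 0.0288), a call lost without Exe replicate 3 or Epi replicate 1 or 3, while the control difference was -1.36 ± 0.69. The difference between genotypes, 4.85 ± 1.29 (adjusted p = 0.0415), was called in 14 of 24 alternative settings. miR-10b-5p overlapped between the *Dnmt*-null tissues, at 39.4 to 426 and 29 to 138 CPM, with 412 to 5675 and 668 to 1738 CPM in control. miR-615-3p was at most 6.96 CPM in every *Dnmt*-null library and at 22.6 to 850 CPM in control.

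Of the 5 tested endoderm miRNAs, miR-192-5p alone was called in *Dnmt*-null. Without Exe replicate 4, 2 were called higher in Exe, miR-194-5p (1.64, adjusted p = 0.0174) among them, and with the replicate block it was also 2. Among all miRNAs tested, 14.6% were called higher in *Dnmt*-null Exe and 7.73% in *Dnmt*-null Epi. miR-192-5p stood at 5985, 6411, 5532 and 1587 CPM in *Dnmt*-null Exe and 1412, 1860 and 623 CPM in Epi (1.91 ± 0.44, adjusted p = 0.005), where Exe replicate 4 lay within the Epi range, and without it the difference was 2.17. The control difference was 2.36 ± 0.45. miR-375-3p had 226, 669, 279 and 267 CPM in *Dnmt*-null Exe and 411, 480 and 2176 CPM in Epi (-1.50 ± 0.61, adjusted p = 0.0937, called with DESeq2), and was higher in Epi in control (-3.03 ± 0.63). The 4 endoderm markers, miR-192-5p, miR-194-5p, miR-122-5p and miR-375-3p, summed to 1919 to 7640 CPM in *Dnmt*-null Exe and 2092 to 2914 CPM in Epi. miR-124-3p, a neural miRNA, was the only one of 8 neural miRNAs called, at 2.69 to 9.80 CPM in Exe and 65.7 to 92.4 CPM in Epi (-3.70 ± 1.28, adjusted p = 0.0494), and the call was lost when any 1 *Dnmt*-null library was left out.

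Not all abundant miRNAs differed. Of the 8 tested members of the epithelial miR-200/miR-141/miR-429 family, none was called in *Dnmt*-null by edgeR, at an unadjusted p under 0.05 or by DESeq2, with miR-200c-3p at 3074 to 4408 CPM in Exe and 3600 to 4608 CPM in Epi (-0.13 ± 0.17). None of the 7 miR-15/miR-16/miR-195 members was called by edgeR or DESeq2, and 1 passed at an unadjusted p, with miR-16-5p at 1552 to 3477 and 1902 to 2823 CPM (0.16 ± 0.23). miR-99b-5p, with a control difference of -0.02 ± 0.20, stood at 9755, 14239, 13722 and 20688 CPM in *Dnmt*-null Exe and 22748, 26325 and 22820 CPM in Epi (-0.71 ± 0.20, adjusted p = 0.0175). The difference of miR-99b-5p between genotypes was not called (-0.69 ± 0.29, adjusted p = 0.203). miR-148a-3p stood at 8423, 7021, 5496 and 2931 CPM in *Dnmt*-null Exe and 2772, 2743 and 3226 CPM in Epi (1.03 ± 0.26, adjusted p = 0.00801), with Exe replicate 4 inside the Epi range, and without it the difference was 1.23.

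The counts of the remaining lists in *Dnmt*-null stand beside 14.6% of all miRNAs called higher in Exe and 7.73% higher in Epi. Of 6 tested trophoblast stem cell miRNAs, 2 were higher in Exe, miR-322-3p and miR-322-5p, and 1 in Epi, miR-205-5p. Of the 9 members of the miR-29 and miR-148/miR-152 families, known to target *Dnmt* messages, miR-148a-3p alone was called. In the miR-99/miR-100 and miR-125 families 1 of 7 was called and in the miR-130/miR-301 family 1 of 8, miR-130b-3p, both higher in Epi, and without Exe replicate 4 it was 3 of 8 in the latter. None of the 11 tested miRNAs of the 6 genes that the study deleted in another line was called, by edgeR at an adjusted or unadjusted p or by DESeq2. That list was chosen by the study with these libraries in hand.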

How the data were processed

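CAS-seq small RNA libraries of E7.5 Exe and Epi were used, 14 in all in 4 groups set by the labels. According to the methods, the authors used fastp 0.20.1 for trimming and Bowtie 1.2.1.1 for alignment (GRCm38, with miRBase annotation), and compared groups with DESeq2 1.30.1. The deposited values are a raw count of reads per mature miRNA, not normalized by the authors. Whether molecular identifiers were used is not given in the sources used here. The authors' other tables and an earlier copy of the count table, which numbers the *Dnmt*-null Epi replicates differently, were not used.

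CPM, percent of library counts and log2 fold changes were computed here from the deposited counts. The 14 libraries were fitted together with edgeR 4.0.16 (R 4.3.3), TMM factors, filterByExpr with a minimum of 10, and glmQLFTest, which left 608 of 1504 miRNAs. SE was derived from the log2 fold change and F. A group whose libraries each held no more than 3 counts was taken as at the limit of detection. Replicates differed by more than counting error, with a chi-squared of at least 16.8 per degree of freedom. In 38 sets of 77 miRNAs, counts were identical over all libraries, 13 of the 39 pairs being opposite strands of 1 site. They were counted once in an alternative chosen after seeing the data. The procedure was tested on simulated data.

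Named miRNAs were the 10 largest called differences in each direction without overlap and with a mean of at least 100 CPM, the 5 most abundant in each *Dnmt*-null tissue, the 10 smallest p-values between genotypes, and 3 members with the highest mean of each list. The members and lists were chosen with earlier results of these data known. Alternatives were RLE factors, library totals only, TMM factors without *Dlk1-Dio3* miRNAs, DESeq2 1.42.0, 2 other filters, all 8 E7.5 groups, only 1 genotype, a replicate block, unadjusted p-values, thinning to the lowest total, and leaving out each library. Sequences were matched by name to RefSeq for 1275 of 1504 miRNAs, and gene positions for 1470.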

Additional observations from a re-analysis of the deposited data

Results flagged for a closer look

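Tissue differences that differed between genotypes, as *Dnmt*-null minus control on the log2 scale, were positive for miR-351-3p (2.58), let-7a-5p (1.74), miR-10a-5p (4.85), and for miR-483-5p (8.30) and miR-483-3p (8.50), whose fitted size depends on the prior count because the *Dnmt*-null Epi libraries have no read. They were negative for miR-295-3p (-0.74), miR-466a-3p and miR-466e-3p (-1.80 each), miR-466b-3p, miR-466c-3p and miR-466p-3p (-1.79 each), miR-669a-5p and miR-669p-5p (-1.59 each), miR-470-5p (-1.90) and miR-142a-5p (-6.96). The miR-466 and miR-669 names share their reads, so they stand for fewer measurements than names.

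Among the 96 named miRNAs, 13 values lay far from the other libraries of their group by Dixon's test, which chance alone gives in about 1 in 20 groups. With this many miRNAs several such values can come from chance alone, and none is taken here as an established outlier. In *Dnmt*-null Exe replicate 4 these were miR-92a-2-5p at 234 CPM, miR-205-5p at 745 CPM and miR-5099 at 128603 CPM. In *Dnmt*-null Exe replicate 3 they were miR-133a-3p at 693 CPM, miR-142a-5p at 679 CPM, miR-27b-3p at 2713 CPM, miR-15b-3p at 33.6 CPM, miR-9-3p at 18.2 CPM and miR-34c-3p at 11.2 CPM. The rest were miR-23b-3p in *Dnmt*-null Exe replicate 1 at 17.4 CPM, miR-375-3p in *Dnmt*-null Exe replicate 2 at 669 CPM, miR-302d-5p in control Exe replicate 2 at 1224 CPM and miR-30d-5p in control Exe replicate 4 at 6162 CPM.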

How the results depend on the processing

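Medians of lists near 0 changed sign. The *Dlk1-Dio3* median was 0.08 with the replicate block, the miR-200/miR-141/miR-429 median, 0.00, was -0.41 with all 8 E7.5 groups, and those of the miR-30 family, 0.20, the miR-15/miR-16/miR-195 family, 0.16, and the genes deleted in another line, 0.18, were -0.05, -0.09 and -0.08 with TMM factors without the *Dlk1-Dio3* miRNAs. The other 22 list medians in *Dnmt*-null did not take the opposite sign in any alternative. With no filter on low counts, however, those of the miR-34 and miR-449 family and of the miR-23/miR-27/miR-24 clusters were 0. The 12 more and 19 less Exe-biased miRNAs between genotypes became 10 and 9 without control Exe replicate 2. Other alternatives made the split more uneven. It was 10 and 38 with library totals only and 8 and 43 with all 8 E7.5 groups. Without control Epi replicate 2 it was 4 and 33, and without control Epi replicate 3 it was 3 and 20. The number of miRNAs whose tissue difference differed between genotypes, 31, was 48 with library totals only, 62 with DESeq2, 64 with no filter on low counts, 51 with all 8 E7.5 groups and 106 with unadjusted p-values. It was 13 to 55 when 1 library was left out, with 19, 16 and 55 without *Dnmt*-null Exe replicate 2, 3 and 4, 13 and 19 without *Dnmt*-null Epi replicate 1 and 2, and 19 without control Exe replicate 2. The other counts stayed within 1.5 times their value: on leaving out 1 library the *Dnmt*-null calls were 101 to 165, the control calls 163 to 233 and those called the same way in both 84 to 131. The miR-290-295 median, 0.86, was 0.75 with RLE factors, 0.71 with library totals, 0.61 with TMM factors without the *Dlk1-Dio3* miRNAs, 0.75 with DESeq2, 0.59 with all 8 groups, 0.69 with only the *Dnmt*-null libraries, 0.60 after thinning and 0.75 with identical miRNAs counted once, and 0.64 to 0.94 on leaving out 1 library. The *Dlk1-Dio3* median, -0.00, was -0.26 with TMM factors without these miRNAs, -0.29 with all 8 groups and -0.24 to 0.03 on leaving out 1 library. The miR-302/miR-367 median was -2.70 to -2.21 and that of the *Sfmbt2* families 2.74 to 3.57 on leaving out 1 library. Beyond these constructions the cause was not tested.

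With the replicate block, 141 miRNAs were called in *Dnmt*-null (91 higher in Exe, 50 in Epi), 184 in control and 50 between genotypes. The deviations of same-numbered Exe and Epi libraries had low correlations, at 0.013, 0.161 and 0.050 in *Dnmt*-null and 0.171, 0.042 and -0.005 in control. Differently numbered libraries had -0.129 to 0.085 in *Dnmt*-null and -0.135 to 0.075 in control. The highest value of each genotype was thus a same-numbered pair. These correlations do not decide whether the numbers are pairs, and the main fit did not use them as such. Of 55 named miRNAs called in *Dnmt*-null, 13 lost the call in at least 1 of 26 settings: miR-10a-5p, miR-124-3p, miR-126a-3p with miR-126b-5p, miR-130b-3p, miR-148a-3p, miR-205-5p, miR-25-3p, miR-291a-5p, miR-293-3p, miR-96-5p, miR-99b-5p and let-7a-5p. Of the named miRNAs not called, 19 gained a call in at least 1. Depths of 266379 to 488108 counts in 5 of the *Dnmt*-null libraries limit what can be seen of miRNAs under about 10 CPM.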

Other observations

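Further miRNAs, all chosen after their values were seen, differed between genotypes in their tissue bias. miR-501-3p, of an X-linked cluster with miR-362 and miR-532 (chrX:7237683-7248497), stood at 3342, 3801, 4293 and 6612 CPM in *Dnmt*-null Exe and 746, 1009 and 859 CPM in Epi (5.18-fold, 2.37 ± 0.25), and at 2763 to 3273 and 1366 to 1987 CPM in the control tissues (0.89 ± 0.23). The *Dnmt*-null difference was larger by 1.48 ± 0.32 (adjusted p = 0.0158, called in 22 of 24 alternative settings). Its neighbour miR-362-5p stood at 4184, 4569, 4783 and 3400 CPM in *Dnmt*-null Exe and 1163, 1392 and 1290 CPM in Epi (1.72 ± 0.17), against 0.77 ± 0.16 in control. For both, the *Dnmt*-null Epi libraries were below every control Epi library. miR-328-3p stood at 183 to 296 CPM in *Dnmt*-null Exe and 39.4 to 92.4 CPM in Epi (1.67 ± 0.41), and at 58.1 to 101 and 102 to 158 CPM in the control tissues (-0.54 ± 0.38), a difference between genotypes of 2.21 ± 0.55 (adjusted p = 0.03, called in 12 of 24 alternative settings).

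miR-335, in the imprinted *Mest* gene, varied between *Dnmt*-null Exe libraries more than between tissues. miR-335-3p stood at 1356, 2308, 14302 and 14775 CPM in *Dnmt*-null Exe and 4586, 3737 and 5138 CPM in Epi (0.87 ± 0.61, adjusted p = 0.324), and miR-335-5p at 786, 1527, 8880 and 3085 CPM and 4974 to 5660 CPM (-0.55 ± 0.55, adjusted p = 0.517). Without Exe replicate 3 the difference of miR-335-5p was -1.49 and called (adjusted p = 0.0166).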
